A study of Mus musculus with 16 samples.

Results

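The genomic sites of Oct4 and of Oct6 M151S on day 1 of reprogramming were compared by ChIP-seq, which sequences the chromatin fragments that an antibody against a factor recovers. The members were the peak summits of 1 Oct4 library (8199 summits) and 1 Oct6 M151S library (22791 summits) on mouse chromosomes 1 to 19, X and Y, together 30990 of the 227116 summits in the 13 summit lists of the series. An Oct4 summit was called shared when an Oct6 M151S summit lay within 100 bp, which gave 686 shared sites, 7513 Oct4-only sites and 22100 Oct6 M151S-only sites. On the Oct6 M151S side 691 summits had an Oct4 summit within that distance. Shared sites were described at their Oct4 summit.

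Both groups were OG2 MEFs, mouse embryonic fibroblasts with a GFP reporter driven by the Oct4 promoter, and both received pMX retroviruses for Sox2 and Klf4 (SK) and were switched to the chemically defined medium iCD1. In the first group the third retrovirus carried Oct4 (Oct4-SK) and the chromatin was pulled down with the Oct4 antibody sc-8628 X. In the second it carried Oct6 M151S (Oct6 M151S-SK) and the antibody was sc-11661 X, raised against Oct6. Day 1 was counted from the switch to iCD1 in the Oct4 sample. The title of the Oct6 M151S sample gives day 1 as well, whereas its day of reprogramming is recorded as day 2, so the days may differ. Each group was 1 library, so factor, antibody and library cannot be told apart, and no test across replicates was possible. The 3 input libraries and any ChIP of wild-type Oct6 were not analysed here, and read depth is not known from the lists. Intervals below are 95% intervals of counting error among sites (Wilson for a share, Newcombe for a difference in percentage points), and they compare these libraries and not the conditions.

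Oct4 (gene Pou5f1) and Oct6 (gene Pou3f1) are POU transcription factors. Their POU-specific domain and POU homeodomain each grip part of the octamer sequence, and pairs of POU factors or a POU factor with Sox2 bind composite elements. The SoxOct element holds a Sox site beside an octamer and is bound by the Oct4-Sox2 heterodimer at many pluripotency enhancers, while MORE and its variant MORE+1, with 1 more base in the centre, are palindromes bound by POU homodimers. Oct4 sustains pluripotent cells, and Oct6 is known for roles in neural progenitors, Schwann cells and keratinocytes. One residue of the POU domain is serine in Oct4 and methionine in Oct6 and governs how readily each forms homodimers on MORE. Oct6 M151S carries the serine of Oct4 and was designed to homodimerise less. Oct4 S151M carries the reverse change, and Oct4defSox2 is an Oct4 whose contact surface with Sox2 was mutated.

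The sequences of 8 sites show what the 3 classes of site look like. They are the shared site with the best mean rank over both lists among those with each motif (the octamer site without SoxOct, the AP-1 site without a POU motif), the Oct4-only site with the highest score for SoxOct and for MORE, and the 2 Oct6 M151S-only sites with the highest scores outside Pou3f1. Sites in UTRs or lying mostly in repeats were passed over, and the choice was made with the values known. Each is printed as the RefSeq GRCm38.p6 sequence (mm10) from 50 bp before to 50 bp after the summit, 5′ to 3′ on the plus strand, with the matches of POU motifs in capitals, and AP-1 in capitals only in the AP-1 site. The Sik3 site and the octamer site private to Oct6 M151S also hold an AP-1 match, TGAGTCA, left in lower case. The score of a summit is the −log10 of its MACS2 p-value.
Shared, SoxOct holding an octamer, Ankfn1 intron, chr11:89579256-89579356: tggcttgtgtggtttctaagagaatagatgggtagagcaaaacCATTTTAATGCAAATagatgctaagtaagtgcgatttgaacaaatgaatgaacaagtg
Shared, MORE and MORE+1, Eml1 intron, chr12:108396218-108396318: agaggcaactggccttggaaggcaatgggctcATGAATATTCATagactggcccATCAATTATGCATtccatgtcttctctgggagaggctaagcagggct
Shared, octamer, intergenic, chr2:126310203-126310303: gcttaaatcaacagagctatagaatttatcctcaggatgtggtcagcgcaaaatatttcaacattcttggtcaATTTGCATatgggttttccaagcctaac
Shared, AP-1 and no POU motif, intergenic, chr12:15562218-15562318: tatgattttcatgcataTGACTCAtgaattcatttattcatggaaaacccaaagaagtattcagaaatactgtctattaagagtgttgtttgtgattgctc
Oct4-only, SoxOct holding an octamer, Nr1h4 intron, chr10:89487459-89487559: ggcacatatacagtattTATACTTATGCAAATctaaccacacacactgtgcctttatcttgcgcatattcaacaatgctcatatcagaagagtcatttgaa
Oct4-only, MORE, Sik3 intron, chr9:46083787-46083887: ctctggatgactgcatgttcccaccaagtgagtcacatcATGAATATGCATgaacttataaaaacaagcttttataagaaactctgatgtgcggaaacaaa
Oct6 M151S-only, octamer, intergenic, chr1:98304959-98305059: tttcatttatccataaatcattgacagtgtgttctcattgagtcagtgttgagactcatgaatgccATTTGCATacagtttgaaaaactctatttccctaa
Oct6 M151S-only, no motif, in a non-coding gene, chr11:40155423-40155523: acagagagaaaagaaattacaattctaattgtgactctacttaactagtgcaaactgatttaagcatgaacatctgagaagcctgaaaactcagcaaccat

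The shared Ankfn1 site had an Oct4 score of 54.9 and an Oct6 M151S score of 12.1, and its SoxOct match had 1 mismatch to the consensus. The shared Eml1 site held a perfect MORE and scored 55.9 for Oct4 and 8.19 for Oct6 M151S. Eml1 encodes a microtubule-binding protein. The octamer site, 95153 bp from the start of Gm17555, scored 38.6 and 13.9, and the AP-1 site, 254517 bp from the start of Trib2, scored 51.2 and 9.49. Of the Oct4-only sites, the one in Nr1h4, which encodes the bile acid receptor FXR, scored 209 and that in Sik3, a kinase gene, scored 154. The SoxOct match in Nr1h4 had 2 mismatches to the consensus, both outside its octamer. The octamer site private to Oct6 M151S scored 22.7 and lay 116115 bp from the start of Slco6d1. It had no Oct4 summit within 29297 bp, but Oct4 S151M (33.7), Oct4defSox2 on day 1 (66.8) and Sox2 in Oct4-SK on day 1 (15.2) each had a summit there. The last site, 537301 bp from the start of Mat2b, scored 20.1 and had its nearest Oct4 summit 381 bp away.

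Few sites were common to Oct4 and Oct6 M151S. Of the Oct4 summits, 8.37% (interval 7.79 to 8.99) had an Oct6 M151S summit within 100 bp, and 3.03% of the Oct6 M151S summits had an Oct4 summit. As a background, 0.168% of the genome lay within 100 bp of an Oct6 M151S summit and 0.0603% within 100 bp of an Oct4 summit. In the shared sites the summits lay at a median distance of 41.5 bp, and 412 of the 686 pairs (60.1%) lay within 50 bp. At the edge of the distance, 136 Oct4 summits had their nearest Oct6 M151S summit at 76 to 100 bp and 115 at over 100 to 125 bp, with median Oct4 scores of 11.03 and 11.4.

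The 2 lists differ in how far down they reach. The lowest score was 4.00 for Oct4 and 2.30 for Oct6 M151S, and 12930 of the Oct6 M151S summits (56.7%) scored under 4. The median score was 11.3 for Oct4 and 3.74 for Oct6 M151S, whose median enrichment over the local background was 2.42-fold. Only 4833 Oct6 M151S summits (21.2%) had a q-value under 0.05. When the Oct6 M151S list was restricted to the 9861 summits scoring at least 4, the number of shared sites was 504, which is 6.15% (interval 5.65 to 6.69) of the Oct4 summits and 5.11% (interval 4.69 to 5.56) of the remaining Oct6 M151S summits.

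Sharing rose with the score in both lists, and more steeply with that of Oct6 M151S. Among Oct4 summits it was 6.05% (124 of 2049) in the lowest quartile of score and 10.7% (219 of 2055) in the highest, with 8.35% and 8.40% in the quartiles between, which did not differ beyond counting error. Among Oct6 M151S summits the share with an Oct4 summit was 1.30% (73 of 5606) at scores under 3, 1.56% at 3 to under 4, 2.59% at 4 to under 5, 6.94% at 5 to under 10 and 28.1% (54 of 192, interval 22.2 to 34.9) at 10 and over. Within the shared sites the Oct4 and Oct6 M151S scores were only weakly related (Spearman rho 0.15 across 686 sites of these 2 libraries, given as a description), and 39 sites scored at least 10 in both.

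**Figure D1:**
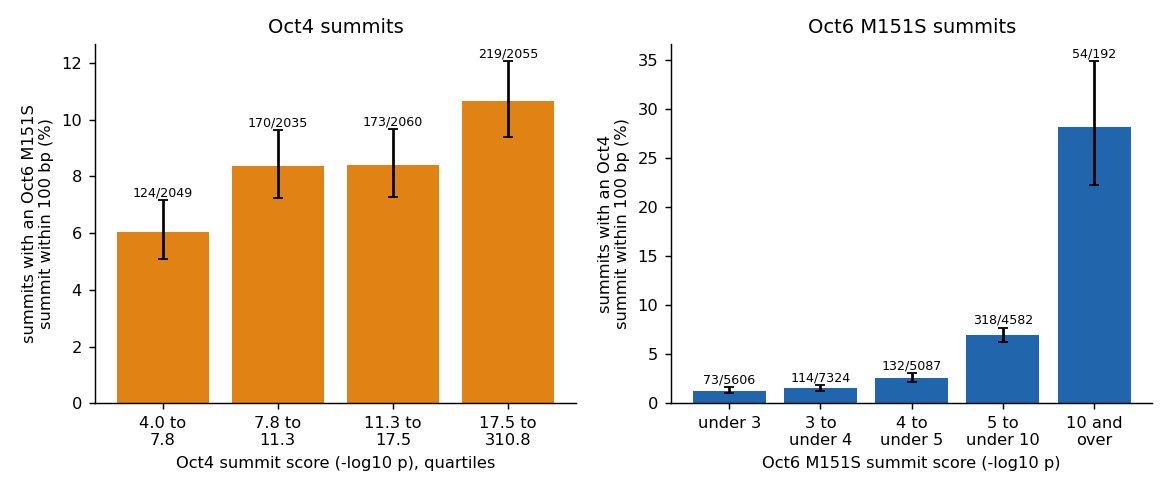
Share of Oct4 summits with an Oct6 M151S summit within 100 bp, by quartile of Oct4 score (left), and share of Oct6 M151S summits with an Oct4 summit, by Oct6 M151S score (right); bars give percent, lines the 95% Wilson interval and labels the counts. The left bars run from 6.05% to 10.7% and the right bars from 1.30% to 28.1%, on different vertical scales.

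The strongest shared sites lay far from gene starts or in introns, and none of the 8 sites with the best mean rank lay in a promoter. The first, chr3:61216569-61216769, is intergenic, 144969 bp from the start of Rap2b, which encodes a small GTPase. It scored 84.3 for Oct4 and 12.3 for Oct6 M151S, and also 537 for Oct4defSox2 and 37.3 for Oct4 S151M on day 1. The second, chr6:13285266-13285466, lies 60401 bp from the start of Vwde and scored 75.9 and 10.8, with summits of 6 of the other 11 lists. A site 260033 bp from the start of Tnc, the gene of the matrix protein tenascin-C, scored 55.6 for Oct4 and 17.6 for Oct6 M151S, the highest Oct6 M151S value of the 8. The other 5 were in the 3′ UTR of St8sia4, a polysialyltransferase gene (121 and 8.82), and in introns of Dpyd, which encodes a pyrimidine-degrading enzyme (57.8 and 10.2), of Ankfn1 (54.9 and 12.1), of Dcbld2 (52.5 and 11.4) and of the thyrotropin receptor gene Tshr (51.2 and 10.2). An Oct4 S151M and an Oct4defSox2 summit lay at all 8 on day 1, against 80.2% and 77.3% of all shared sites. Among shared sites in the highest quartile of Oct4 score, where all 8 lie, these were 93.6% and 92.7%. A summit in at least 1 Sox2 list lay at 5 of the 8, against 58.5% of all shared sites.

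Further shared sites were singled out after their values were seen. The highest Oct6 M151S score at a shared site was in an intron of the kinase-like gene Cdkl3 (chr11:52011401-52011601), at 152.6 with a 21.8-fold enrichment. Oct4 scored 18.997 there, Oct4defSox2 103 and Oct4 S151M 40.7 on day 1, and the next highest shared Oct6 M151S score was 21.3, at an intergenic site 373211 bp from the start of Cps1. The highest Oct4 score of all, 310.8, was in an intron of Kremen1, the gene of a Dickkopf receptor in Wnt signalling, with an Oct6 M151S score of 3.74. The next was in an intron of the cAMP phosphodiesterase gene Pde4d, at 295.9 for Oct4 and 3.05 for Oct6 M151S. With Oct6 M151S scores of at least 4 both Kremen1 and Pde4d sites became Oct4-only, whereas the sites near Rap2b, Vwde and Tnc and the one in Ankfn1 were then the 4 best shared sites.

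The Oct4-only list was headed by sites in introns. The 8 highest, with scores of 165 to 244, were in introns of Celf2 (an RNA-binding protein), Sort1 (the sorting receptor sortilin), Nr1h4, Sema6d (a semaphorin), Acoxl, Rab3ip and Slc10a7, and 9620 bp from the start of 5031439G07Rik. The Celf2 site, chr2:6998846-6999046, scored 244 on day 1, 144 on day 5 and 12.3 on day 7 of Oct4-SK, and 959 for Oct4 S151M. The Sort1 site, chr3:108304757-108304957, held a MORE in a window that was 99.5% repeat sequence and scored 220 for Oct4, 664 for Oct4defSox2 and 1235 for Oct4 S151M on day 1. The windows in Slc10a7 (96.5%) and Acoxl (59.2%) and near 5031439G07Rik (60.7%) were also mostly repeat, as were 12.5% of all Oct4-only windows. An Oct4 S151M summit lay at all 8 sites, against 78.2% of all Oct4-only sites and 95.4% of those in the highest quartile of Oct4 score. These pull-downs shared the Oct4 antibody, and their scores are not scaled between libraries.

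The Oct6 M151S-only list was headed by the gene of Oct6 itself. Its 2 highest summits lay in the coding exon of Pou3f1, at chr4:124658592-124658792 with a score of 344 and a 39.4-fold enrichment and at chr4:124657849-124658049 with 112 and 17.5-fold. The retrovirus of these cells carries the Oct6 M151S coding sequence, and reads from the vector and from the chromosomal gene cannot be told apart in such an exon. Oct4 had no summit in Pou3f1. Sox2 had 3 summits in the Pou3f1 exon in Oct6-SK on day 1, the highest scoring 43.6, and 3 on day 5, the highest scoring 22.6. The exon also held 1 to 2 Sox2 summits in each list of the cocktails without Oct6, the highest scoring 48.04 in Oct4defSox2-SK on day 5, and 1 Oct4defSox2 summit of 9.72 on day 1. Below Pou3f1 the scores fell to 22.7 and less. They included the site 30956 bp from the start of Rc3h1 (19.3), the promoter of Cavin3, which encodes a caveolar coat protein (18.6), an intron of Ccdc117 (18.4) and the coding exon of Sox17, an endoderm transcription factor (17.9). The Cavin3, Ccdc117 and Sox17 sites had no summit of any other list within 100 bp, although all 6 Sox2 lists had a summit 131 to 376 bp from the Sox17 site.

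By location, the private Oct6 M151S sites lay nearer to genes than the shared sites did. Promoters, within 1 kb of the start of a protein-coding transcript, held 15 shared sites (2.19%, interval of the difference from Oct4-only −1.58 to 0.80 points), 212 Oct4-only sites (2.82%) and 1720 Oct6 M151S-only sites (7.78%), against 1.97% of the bases of the genome. The difference of shared from Oct6 M151S-only sites was −5.60 points (interval −6.53 to −4.16). Coding exons held 0.29% of the shared, 0.39% of the Oct4-only and 2.43% of the Oct6 M151S-only sites. Introns held 41.0%, 43.3% and 42.8%, and intergenic sequence 47.7%, 44.9% and 39.0%, respectively. The median distance to the nearest protein-coding start was 84.4 kb for shared, 58.2 kb for Oct4-only and 38.6 kb for Oct6 M151S-only sites, and 314 shared sites (45.8%) lay more than 100 kb from any.

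**Figure D2:**
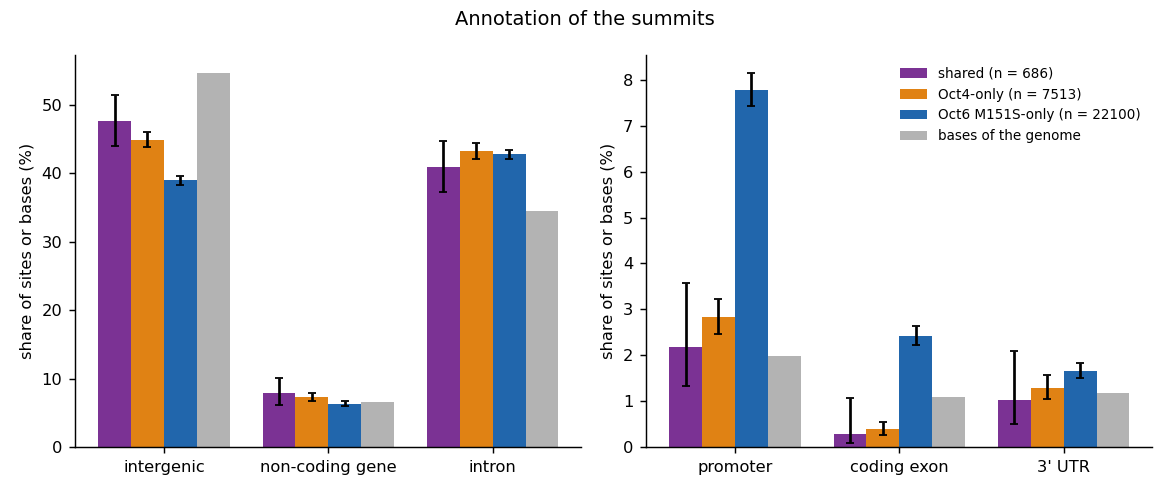
Share of the shared, Oct4-only and Oct6 M151S-only sites in each annotation class, in percent with 95% Wilson intervals, and the share of genome bases in grey. Oct6 M151S-only sites stand out in promoters, with 7.78% against 2.19% and 2.82%, and in coding exons.

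Base composition followed the same split. The median GC content within 100 bp of the summit was 37.3% at shared, 38.3% at Oct4-only and 45.3% at Oct6 M151S-only sites, whereas it was 40.8%, 41.3% and 43.3% in windows 2 kb away. Windows like a CpG island (GC over 50% and observed over expected CpG over 0.6) made up 0.73%, 1.33% and 4.77% of the sites. The difference of shared from Oct6 M151S-only sites was −4.04 points (interval −4.55 to −3.04), and that from Oct4-only sites was within counting error. For Oct6 M151S-only sites scoring under 4 and those scoring at least 4 the median GC content was the same, 45.3%. Among all Oct6 M151S summits scoring 10 or more, however, it was 38.3%. Windows made up mostly of repeats were 5.25% of the shared, 12.5% of the Oct4-only and 11.7% of the Oct6 M151S-only sites.

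Motifs for POU factors were far more common at Oct4 sites, shared or not, than at private Oct6 M151S sites. Consensus matches were sought on both strands within 100 bp of each summit. SoxOct (up to 2 mismatches), MORE and MORE+1 (up to 1 mismatch) are degenerate and given by name, and the octamer was ATGCAAAT, which can lie within a SoxOct match. MORE and MORE+1 matches can overlap each other. SoxOct was found in 80 shared sites (11.7%), 1156 Oct4-only sites (15.4%) and 274 Oct6 M151S-only sites (1.24%), and in 1.17%, 1.08% and 0.898% of windows 2 kb away. MORE or MORE+1 was found in 8.45%, 10.6% and 0.688%, against 1.17%, 0.812% and 0.699% of the flanking windows. The octamer was found in 11.2%, 8.23% and 1.83%, against 2.04%, 1.59% and 1.55%. No POU motif was found in 72.6% of the shared, 70.2% of the Oct4-only and 96.5% of the Oct6 M151S-only windows.

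Compared with Oct4-only sites, shared sites held SoxOct less often and the octamer more often. The differences were −3.72 points (interval −6.07 to −0.99) for SoxOct and 3.00 points (interval 0.76 to 5.65) for the octamer, and for MORE or MORE+1 the interval held 0 (−4.17 to 0.24). These differences are small and depend on the settings, and the interval came to hold 0 in 6 of 12 alternatives for SoxOct and 6 of 11 for the octamer. With Oct6 M151S scores of at least 4 the octamer difference was 2.17 points (interval −0.30 to 5.22), and SoxOct matches with 1 fewer mismatch differed by −0.43 points (interval −1.26 to 0.89). Without the Oct4 and Oct6 M151S summits that had a Sox2 summit the octamer difference was 6.82 points (interval 2.81 to 11.9). Within quartiles of Oct4 score the octamer interval excluded 0 only in the highest (5.75 points, interval 1.39 to 11.2), with −1.03 points in the second, and the SoxOct interval only in the second (−7.04 points, interval −10.4 to −1.94). Read by motif, 11.1% of the Oct4 sites with an octamer were shared (77 of 695), 6.47% of those with SoxOct (80 of 1236), 5.85% of those with MORE (37 of 632) and 9.66% of those with MORE+1 (23 of 238). The intervals for MORE (4.28 to 7.97) and MORE+1 (6.53 to 14.1) overlapped. Compared with Oct6 M151S-only sites the shared share was higher by 10.4 points for SoxOct, 7.77 for MORE or MORE+1 and 9.39 for the octamer, with every interval above 0. At Oct6 M151S scores of 5 and over the octamer was above its background. SoxOct and MORE or MORE+1 were above theirs at 5 to under 10, but within counting error at 10 and over. At scores of 5 to under 10 (4582 summits, shared ones included) SoxOct was found in 2.51%, MORE or MORE+1 in 1.51% and the octamer in 3.16%, against 1.07%, 0.753% and 1.63% of the flanking windows. Of the private summits with a q-value under 0.05, 2.67% held an octamer and 1.82% SoxOct, against 1.55% and 1.07%. MORE or MORE+1 was found in 1.08% of them (interval 0.81 to 1.43), and that interval holds the 0.819% of their flanking windows. At scores of 10 and over, 15 of 192 summits (7.81%, interval 4.79 to 12.5) held an octamer, against 0.781% of their flanking windows. SoxOct and MORE or MORE+1 were rarer there, each in 4 summits (2.08%, interval 0.81 to 5.23). Their flanking windows had 1.04% and 1.30%, which that interval holds. At scores under 3 the octamer share was 1.75%, against 1.54% in the flanks.

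Motifs of other factors were compared in the same windows. AP-1, the factor of the Fos and Jun proteins that is abundant in fibroblasts, was sought as TGACTCA or TGAGTCA. It was found in 14.4% of shared, 11.02% of Oct4-only and 5.45% of Oct6 M151S-only sites, and in 3.06% to 3.49% of flanking windows. The shared share was higher than the Oct4-only share by 3.41 points (interval 0.87 to 6.32) and higher than the Oct6 M151S-only share by 8.98 points (interval 6.53 to 11.8). In 5 of 10 alternatives the interval of the difference from Oct4-only sites held 0, such as −0.27 to 3.94 at a sharing distance of 250 bp and −2.09 to 6.29 without sites with a Sox2 summit, and of the quartiles of Oct4 score only the lowest excluded it. A single Sox site (CCATTGTC, CCATTGTG, CCATTGTT, CCTTTGTC, CCTTTGTG or CCTTTGTT) was found in 15.2%, 11.9% and 7.51%, with 3.26 points (interval 0.66 to 6.23) between shared and Oct4-only. At Oct6 M151S scores of at least 4 that interval was −0.051 to 6.33, and within quartiles of Oct4 score the difference ran from 10.6 points in the lowest, the only one to exclude 0, to −2.01 in the second. KLF sites (GGGCGGGGC, GGGCGTGGC, GGGTGGGGC or GGGTGTGGC) were found in 1.31%, 1.44% and 2.09%, and neither difference of the shared sites passed counting error.

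**Figure D3:**
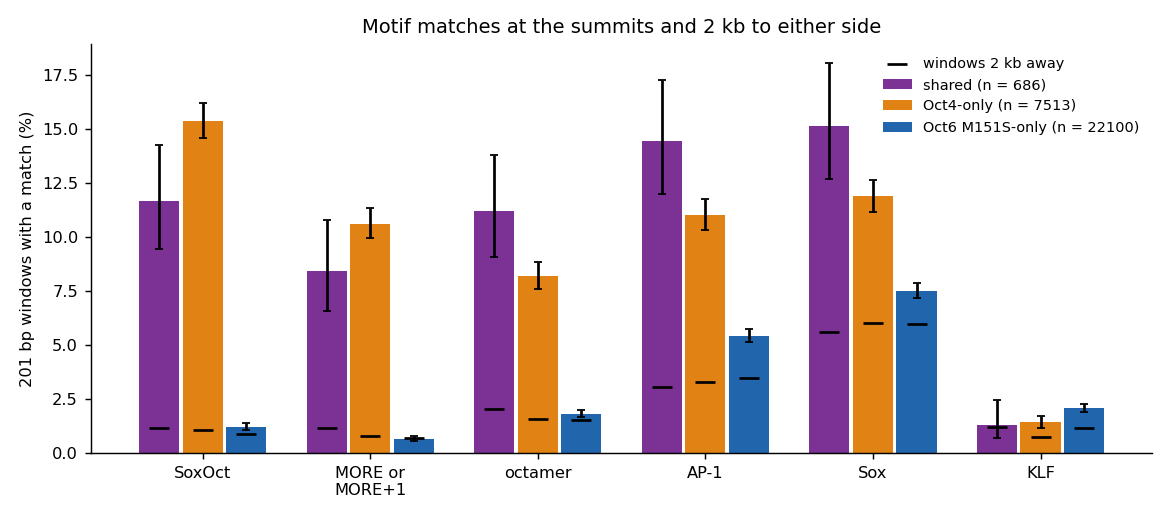
Share of windows of 100 bp to either side of the summit with a match to each motif in the 3 classes of site, in percent with 95% Wilson intervals; black ticks give the share in windows 2 kb to either side. At Oct6 M151S-only sites the SoxOct, MORE and octamer bars (1.24%, 0.688% and 1.83%) stand nearer to their ticks than those of the shared and Oct4-only sites do.

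The classes were also set against the other 11 summit lists. Sox2 in Oct4-SK on day 1 had a summit within 100 bp of 281 shared sites (41.0%), 1347 Oct4-only sites (17.9%) and 521 Oct6 M151S-only sites (2.36%). The shared share exceeded the Oct4-only share by 23.0 points (interval 19.3 to 26.8). Sox2 in Oct6-SK, the cocktail with wild-type Oct6, was at 18.1%, 3.93% and 1.33% on day 1, and Sox2 in Oct4defSox2-SK at 18.5%, 4.25% and 1.73%, with differences of 14.1 and 14.3 points between shared and Oct4-only sites. A Sox2 summit of any of the 6 Sox2 lists lay at 401 shared sites (58.5%), 25.8% of the Oct4-only and 6.08% of the Oct6 M151S-only sites. Sox2 in Oct6 M151S-SK cells was not among the lists.

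Read the other way, Oct4 sites were shared more often the more Sox2 lists held them. Without a Sox2 summit 285 of 5863 Oct4 sites (4.86%) were shared, with a summit in 1 of the 6 Sox2 lists 12.6%, in 2 lists 18.4%, in 3 lists 30.1%, in 4 lists 30.4%, in 5 lists 39.2% (20 of 51) and in all 6 lists 43.5% (10 of 23, interval 25.6 to 63.2). The shares at 3 to 6 lists overlapped in their intervals. The difference in Sox2 occupancy stood within each quartile of the Oct4 score, a comparison added after the data were seen. For Sox2 in Oct4-SK on day 1 it was 18.5, 23.3, 21.7 and 24.4 points from the lowest to the highest quartile, with every interval above 0. Among the other lists of the series, those of Sox2 in Oct6-SK had the largest share of summits with an Oct6 M151S summit, 13.1% on day 1 and 12.5% on day 5. It was 8.70% for Sox2 in Oct4defSox2-SK on day 1, 8.37% for Oct4 on day 1 and 1.60% for Oct4 S151M. These lists differ in length, from 1034 to 101151 summits, with 3242 and 2669 for Sox2 in Oct6-SK, so the shares are not on equal terms.

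**Figure D4:**
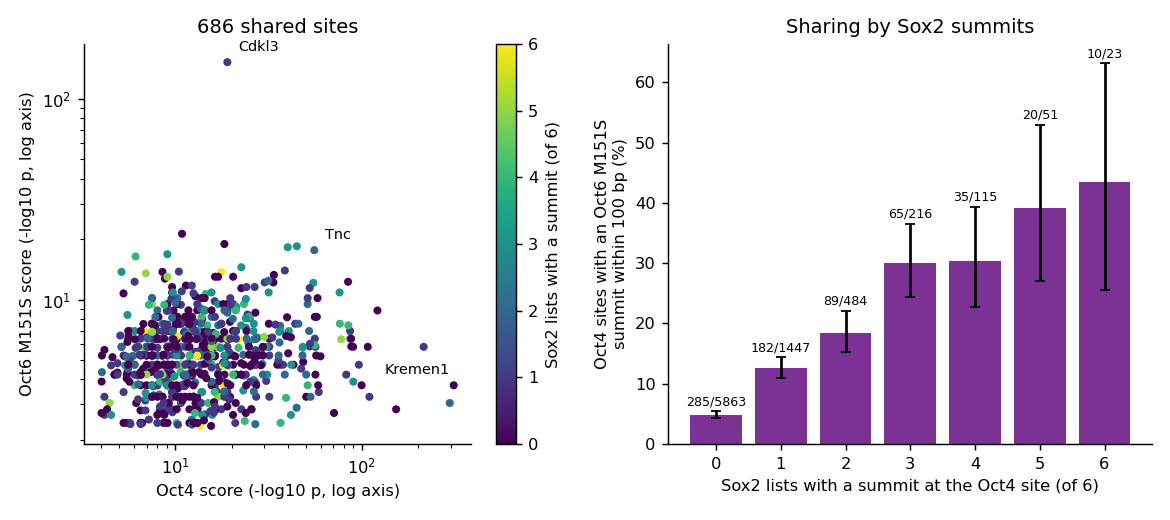
Left, Oct4 against Oct6 M151S score (−log10 p, log axes) at the 686 shared sites, coloured by the number of Sox2 lists with a summit; right, share of Oct4 sites with an Oct6 M151S summit by that number, in percent with 95% Wilson intervals and counts. The scores form a broad cloud, with Cdkl3 alone above an Oct6 M151S score of 100, and the share rises from 4.86% to 43.5%.

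Among the Oct4 variants, Oct4defSox2 was found more often at shared than at Oct4-only sites, whereas for Oct4 S151M the difference was within counting error. Oct4defSox2 on day 1 had a summit at 77.3% of shared and 55.7% of Oct4-only sites, a difference of 21.6 points (interval 18.1 to 24.8), which was 15.2 to 22.4 points within the quartiles of Oct4 score. Oct4 S151M had a summit at 80.2% and 78.2%, a difference of 2.02 points (interval −1.26 to 4.98). When the shared sites were centred on their Oct6 M151S summit, that difference was −4.40 points (interval −7.94 to −1.10). Oct4-only sites kept their Oct4 summit, so the classes were not centred alike and the change of sign cannot be read as one of occupancy. At the Oct4 summits, the Oct4 S151M difference within quartiles of Oct4 score ran from −7.50 points (interval −14.4 to −1.81) in the third to 4.87 points in the lowest. Both of these comparisons were added after the data were seen. At Oct6 M151S-only sites these 2 lists had summits at 5.67% and 5.01%. At Oct6 M151S scores of 10 and over, counting shared sites too, Oct4defSox2 was at 53.6% and Oct4 S151M at 44.3% of the 192 summits.

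In the later Oct4 lists the difference between shared and Oct4-only sites depended on the Oct6 M151S scores admitted on day 5 and was within counting error on day 7. The day 5 list held 27.3% of shared and 24.3% of Oct4-only sites (difference 2.97 points, interval −0.38 to 6.55), and the day 7 list 13.4% and 12.99% (difference 0.42 points, interval −2.05 to 3.27). When only Oct6 M151S scores of at least 4 were admitted, the day 5 difference was 5.14 points (interval 1.21 to 9.37) and the day 7 difference 0.708 points (interval −2.13 to 4.07). Oct6 M151S-only sites had an Oct4 summit on day 5 at 0.36% and on day 7 at 0.22%. Of the Oct6 M151S-only sites 19583 (88.6%) had no summit in any other list, against 29 shared sites (4.23%) and 891 Oct4-only sites (11.9%).

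**Figure D5:**
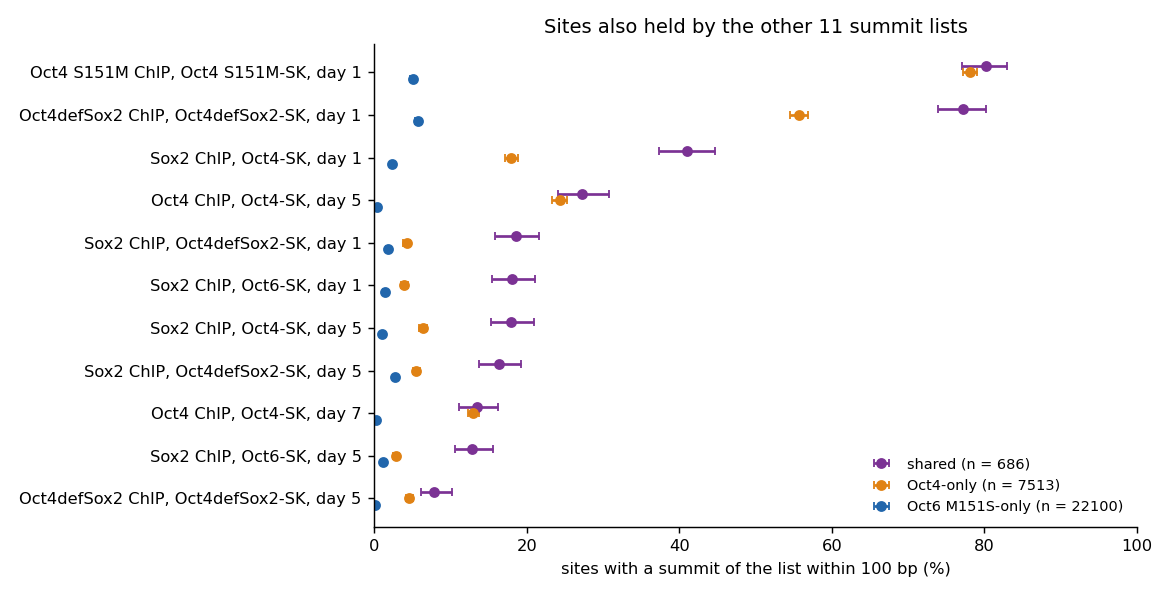
Share of shared, Oct4-only and Oct6 M151S-only sites with a summit of each of the other 11 lists within 100 bp, in percent with 95% Wilson intervals. Shared points lie right of the Oct4-only points for all 6 Sox2 lists and for Oct4defSox2, and on or near them for Oct4 S151M and Oct4 on days 5 and 7.

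Gene by gene, 415 of 21827 protein-coding genes (1.90%) had a shared site within 50 kb of a start, 23.7% an Oct4 summit and 62.2% an Oct6 M151S summit. With Oct6 M151S scores of at least 4 these were 301 genes (1.38%) for shared sites and 36.8% for Oct6 M151S. Over lists of 150 genes for pluripotency, the reprogramming factors, POU, Sox and AP-1 factors, mesenchymal, epithelial, TGF-beta, neural, Schwann and keratinocyte, and housekeeping functions, 53 (35.3%) had an Oct4 summit, 115 (76.7%) an Oct6 M151S summit and 5 (3.33%) a shared site. Those 5 were Pou5f1, Klf4, Sox21, Runx2 and Pou1f1. No gene of the AP-1 (10 genes), epithelial (18), TGF-beta (20), neural (16), Schwann and keratinocyte (8) or housekeeping (12) lists had a shared site. With 1.90% of all genes having one, lists this short cannot show a lack of shared sites.

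At Pou5f1 the shared site lay 1975 bp from the start, in the upstream sequence where the enhancers of the gene are found (chr17:35503943-35504143). It scored 44.7 for Oct4 and 2.89 for Oct6 M151S, held a SoxOct match and had summits in 6 of the other lists. The GFP reporter of both groups is driven by the Oct4 promoter, and whether reads at this site came partly from the reporter was not tested. Since the Oct6 M151S score was under 4, Pou5f1 had no shared site in the restricted list. Oct4 had 3 more summits within 50 kb of Pou5f1, scoring 5.30 to 17.4, and Oct6 M151S had 3 private ones scoring 2.45 to 3.78. In the coding exons of Klf4 a shared site scored 33.7 for Oct4 and 13.3 for Oct6 M151S, and an Oct4-only summit scored 12.2. At Sox2 both factors had summits within the transcript without meeting the distance: Oct4 at 295 and 727 bp from the start (18.3 and 11.3) and Oct6 M151S at 430 bp (14.4). Klf4 and Sox2 are carried by the retroviruses of both groups and Pou5f1 by that of Oct4-SK, so summits in their exons, including the Oct4 summit of 17.4 at 302 bp from the Pou5f1 start, are subject to the same uncertainty as Pou3f1.

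Near Sox21, a Sox factor of neural and embryonic cells, 2 shared sites were found. The one 6642 bp from the start (chr14:118230288-118230488) held a SoxOct match, scored 77.4 for Oct4 and 6.34 for Oct6 M151S and had summits in 9 of the other 11 lists, the highest number at any shared site, reached by 8 sites in all. The other, 24828 bp away, scored 7.49 and 3.27. Runx2, which drives bone formation, had a shared intronic site at 34533 bp (19.1 and 4.69), and Pou1f1, the pituitary POU factor, one at 13499 bp (10.5 and 7.82). Of the 19 genes of the pluripotency list, 5 (26.3%, against 23.7% of all genes) had an Oct4 summit: Pou5f1, Tfcp2l1, Dppa5a, Tet1 and Klf2. Oct6 M151S had a summit near 11 (57.9%, against 62.2%), and with scores of at least 4 near 5 (26.3%, against 36.8%). Neither factor had one near Nanog.

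The genes with the most shared sites in their body or within 5 kb were long. Pde4d, which spans 1504 kb, had 4 shared, 10 Oct4-only and 23 Oct6 M151S-only sites. Adamtsl1, Etl4, Fhit and Sema6d had 3 shared sites each, over 578 to 1612 kb. Crlf2, the gene of the thymic stromal lymphopoietin receptor subunit, had 2 in its promoter although it spans only 4.29 kb. They scored 82.4 and 152.6 for Oct4 and 4.22 and 2.84 for Oct6 M151S, and the gene was chosen after its values were seen.

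With Oct6 M151S scores of at least 4, 3 of 36 differences of the shared sites from the private ones changed their call, those of the octamer, the Sox site and the Oct4 day 5 list against Oct4-only sites, as given above. The KLF difference, within counting error in both, went from −0.13 to 0.38 points. Promoters held 2.18% of shared, 2.81% of Oct4-only and 8.22% of Oct6 M151S-only sites, and SoxOct was found in 11.7%, 15.3% and 1.49%. Sox2 in Oct4-SK on day 1 was at 41.9%, 18.4% and 3.60%, and Oct4defSox2 on day 1 at 77.8%, 56.2% and 8.71%.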

How the data were processed

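ChIP-seq summit lists were used as deposited. The authors aligned paired-end reads to mm10 with Bowtie2 (2.2.5 in the submitters' processing notes), removed poorly mapped and duplicate reads with SAMtools and called peaks with MACS2 for each library. Each deposited summit carries as its score the −log10 p-value given by MACS2, which is not scaled between libraries. For Oct6 M151S the deposited peak table also gave the −log10 q-value and the fold enrichment over the local background, a ratio. The stated p-value limit corresponds to a score of 4, and why this list reaches lower is not given in the sources used here. Read depth could not be had from these lists, and scores were used to rank summits within a list or set a minimum.

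Members, gene lists, motifs and settings were chosen with earlier results of these data known, so none is independent support. Groups came from sample titles, with 1 library each. Sites were matched within 100 bp (17 Oct4 and 13 Oct6 M151S summits on other sequences were left out). GENCODE M21 and RefSeq GRCm38.p6 sequence were used. A summit in several annotation classes took promoter first. Named sites were the 8 shared sites with the best mean of both within-list rank percentiles and the 8 highest private sites of each factor, repeated with 4 at a score of at least 4, together with reprogramming factor genes, list genes with a shared site and the 5 genes with most shared sites. Differences were given Newcombe intervals and shares Wilson intervals, with no p-values, and 20 of the differences were recomputed under the alternatives. Python 3.11.15, numpy 2.4.6, pandas 2.3.3 and scipy 1.17.1 were used, and the procedure was tested on simulated data. The alternatives tried are given at the end.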

Additional observations from a re-analysis of the deposited data

How the results depend on the processing

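Of 202 values of 20 differences under alternatives, 163 kept their sign and their side of 0, 21 came to have an interval that holds 0, 3 came to exclude it and 15 changed sign. No alternative run changed the sign or call of the Oct4defSox2 and Sox2 (Oct4-SK) differences on day 1, nor of the SoxOct, MORE and Oct4 S151M differences between shared and Oct6 M151S-only sites. Values below are differences of shared minus Oct4-only sites in percentage points unless named otherwise, and the cause of each shift was not tested. At a distance of 50 bp, 5.03% of Oct4 and 1.81% of Oct6 M151S sites were shared and the KLF difference was 0.54. At 250 bp the shares were 13.4% and 4.89%, with MORE −3.27, SoxOct −2.11, AP-1 1.72, KLF 0.029 and Oct4 S151M −0.44. With Oct6 M151S scores of at least 4 they were 6.15% and 5.11%, with octamer 2.17 and KLF 0.38. With its q-value under 0.05 they were 4.61% and 7.82%, with SoxOct −2.21, octamer 2.76, AP-1 3.12 and KLF 0.45. With scores of at least 10 in both lists they were 0.82% and 20.3%, with CpG island-like 1.68, SoxOct −10.2, octamer 3.23, AP-1 1.64 and KLF 3.57, and, against Oct6 M151S-only sites, promoter −6.54, CpG island-like −3.32, octamer 4.98, AP-1 5.63 and KLF 3.82. With equal numbers of the strongest summits both shares were 5.71%, with SoxOct −3.30, octamer 2.11 and KLF 0.30. With 1 summit per peak MORE was −2.67. Without the Oct4 and Oct6 M151S summits that had a Sox2 summit the shares were 4.25% and 1.18%, with promoter 0.22, CpG island-like 0.46, SoxOct −1.72, AP-1 1.55 and KLF 0.31. Motifs within 50 bp gave octamer 1.14, 1 fewer mismatch SoxOct −0.43, and 1 more mismatch MORE 0.57 and octamer 0.88. With the shared sites alone centred on the Oct6 M151S summit, an alternative added after the data were seen, MORE was −3.35, AP-1 2.39, KLF 0.020 and Oct4 S151M −4.40. Within 10 kb of a start, 3 list genes in place of 5 had a shared site.

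No paired analysis was possible because each group had 1 library. For the same reason leaving out a replicate could not be run, and factor, antibody, library and the reach of each list cannot be told apart. Summits of one library share its chromatin, so the intervals cover counting error only.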
